A study of Mus musculus with 15 samples.

Results

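The 10 genes described here are transcribed in neurons within minutes to hours of strong activity: 4 early growth response genes (Egr1, Egr2, Egr3, Egr4), 2 orphan nuclear receptor genes (Nr4a1, Nr4a3), the neuronal transcription factor gene Npas4, the synaptic genes Arc and Homer1, and the phosphatase gene Dusp1. They were found by gene symbol, as 10 of the 35976 genes of a table of read counts, and all 10 had a row. RNA was sequenced from nuclei of the ventral tegmental area, the midbrain region whose dopamine neurons project to the striatum and cortex.

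Neuronal firing raises calcium and activates kinases such as CaMK and ERK, which act on CREB and SRF already bound at the promoters of such genes, so that transcription needs no new protein. Egr proteins are zinc finger factors and Nr4a proteins are nuclear receptors without a known physiological ligand. Npas4 is a bHLH-PAS factor induced by calcium entry. Arc acts in the removal of AMPA receptors from synapses, Homer1 encodes a scaffold for group I metabotropic glutamate receptors, and Dusp1 dephosphorylates MAP kinases. In dopamine regions, stimulants such as cocaine are known to induce several of these genes, most studied in the striatal targets.

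All mice were male heterozygous DAT-Cre animals (B6.SJL-Slc6a3tm1.1(cre)Bkmm/J) 8 to 12 weeks old, in which Cre is made from the dopamine transporter locus, and all had received AAV5-DIO-KASH-HA in the ventral tegmental area 14 days before training. The virus puts an HA tag on the nuclear envelope of cells that make Cre, and nuclei were sorted as HA+/DAPI+ (dopaminergic, DA) or HA-/DAPI+ (non-dopaminergic, nDA). The food-trained group (FT) was taken after the last of 7 days of lever pressing for food, with no cocaine, and gave 4 DA and 4 nDA libraries. The maintenance group (MN, 3 DA libraries) had also self-administered intravenous cocaine in daily 1-hour sessions, 5 at 0.3 and 10 at 1.0 mg/kg per infusion, and was taken after the last of them. The group labelled Craving (CRV, 4 DA libraries) then spent 21 days in the home cage without cocaine. No group had food training with the same passage of time and no cocaine, so cocaine and time cannot be told apart between stages. Each library held tissue of 2 mice, pooled. Nothing else says how samples of a group were separated, so p-values measure the spread between these pools.

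Libraries held 25813697 to 59046618 counts. The summed level of 8 dopamine neuron markers was 5592 to 12300 CPM in the DA libraries and 342 to 522 CPM in the nDA libraries. CPM are counts scaled to the same library total, with totals adjusted by TMM factors. The nDA nuclei are labelled as neurons, but they were sorted without a neuronal marker and 6 oligodendrocyte markers summed to 8985 to 21929 CPM in them, against 987 to 2576 CPM in DA. A slope on GC was taken per library: log2 CPM, as a deviation from the mean of all libraries, per percent GC of a gene's transcript. It was lowest in the 3 MN libraries and FT nDA replicate 2, at -0.0377 to -0.0224, called a low GC slope here. The other 8 DA libraries had -0.0166 to 0.0205, and the other 3 nDA libraries 0.0210 to 0.0324. The cut is not sharp in DA. MN replicate 2 (-0.0224) lay closer to FT DA replicate 2 (-0.0166) than to MN replicates 1 and 3 (-0.0377 each). Among the DA libraries, MN and the low GC slope cannot be told apart. The genes here, except Homer1 at 36.9% GC, have transcripts of 48.4% to 68.2% GC.

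Promoter sequences of 7 of the 10 genes were in the RefSeq table of build GRCm38.p6, and 5 are shown for the short motif, bound by CREB, that each of them held. The runs lie directly before the start of transcription, 5′ to 3′ on the gene's strand, with capitals on TGACG or its reverse complement CGTCA (the CREB half-site). Nr4a1 is on chromosome 15, Homer1 on 13, Egr2 on 10, Egr4 on 6 and Dusp1 on 17. The Dusp1 run ends 48 bases before the start, where an annotated exon begins.
Nr4a1, chr15:101266596-101266845, plus strand: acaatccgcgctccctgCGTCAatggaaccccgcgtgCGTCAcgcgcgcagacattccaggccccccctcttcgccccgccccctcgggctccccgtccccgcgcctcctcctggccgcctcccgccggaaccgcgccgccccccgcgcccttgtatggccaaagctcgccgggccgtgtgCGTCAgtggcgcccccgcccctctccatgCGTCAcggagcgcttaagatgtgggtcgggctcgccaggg
Homer1, chr13:93303507-93303756, plus strand: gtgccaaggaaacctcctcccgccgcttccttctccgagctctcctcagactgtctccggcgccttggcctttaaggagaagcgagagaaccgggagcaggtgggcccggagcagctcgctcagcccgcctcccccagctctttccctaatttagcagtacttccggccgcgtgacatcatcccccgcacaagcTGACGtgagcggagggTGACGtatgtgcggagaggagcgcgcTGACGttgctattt
Egr2, chr10:67537619-67537868, plus strand: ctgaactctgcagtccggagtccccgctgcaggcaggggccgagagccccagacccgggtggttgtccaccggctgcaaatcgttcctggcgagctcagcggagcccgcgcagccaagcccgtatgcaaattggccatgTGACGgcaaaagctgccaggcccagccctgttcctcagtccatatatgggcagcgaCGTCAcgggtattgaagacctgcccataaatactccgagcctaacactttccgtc
Egr4, chr6:85513590-85513839, minus strand: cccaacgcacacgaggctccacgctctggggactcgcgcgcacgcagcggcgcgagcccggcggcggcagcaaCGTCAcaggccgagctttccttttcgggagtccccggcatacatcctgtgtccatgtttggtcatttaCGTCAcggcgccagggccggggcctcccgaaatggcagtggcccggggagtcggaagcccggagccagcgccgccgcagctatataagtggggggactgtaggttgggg
Dusp1, chr17:26508520-26508722, minus strand: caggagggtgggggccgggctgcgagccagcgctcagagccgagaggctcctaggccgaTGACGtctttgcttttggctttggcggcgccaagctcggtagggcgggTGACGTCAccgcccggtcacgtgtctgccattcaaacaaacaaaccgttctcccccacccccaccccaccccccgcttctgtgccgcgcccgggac

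TGACG, searched on both strands in the 250 bases before the start, occurred in at least 1 window of 7 of the 7 genes (Egr2, Egr4, Nr4a1, Nr4a3, Npas4, Homer1 and Dusp1). Of all 27025 genes with a promoter entry, 19.8% had it, and of the 8115 genes with a window of at least 60% GC 28.7% had it. The only Npas4 window lay wholly within an annotated exon of Npas4, so its matches are in transcribed sequence. Of the Nr4a3 window 152 of 250 bases were exon, including the match 147 bases before the start. Nr4a1 and Nr4a3 had 4 matches each. Homer1 had 3, all close to the start. Egr2 has 5 annotated windows and Homer1 has 2. The full palindrome TGACGTCA, which contains both half-sites, was in Dusp1 alone of the 7 and in 1.77% of all genes. A CArG box, the SRF site, was in Egr2 alone of the 7 (1.62% of all genes). The Nr4a site AAAGGTCA and the Egr site GCGTGGGCG were in 0 of the 7, against 1.55% and 0.622% of all genes. A match describes the letters in these windows and not a bound factor.

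**Figure D1:**
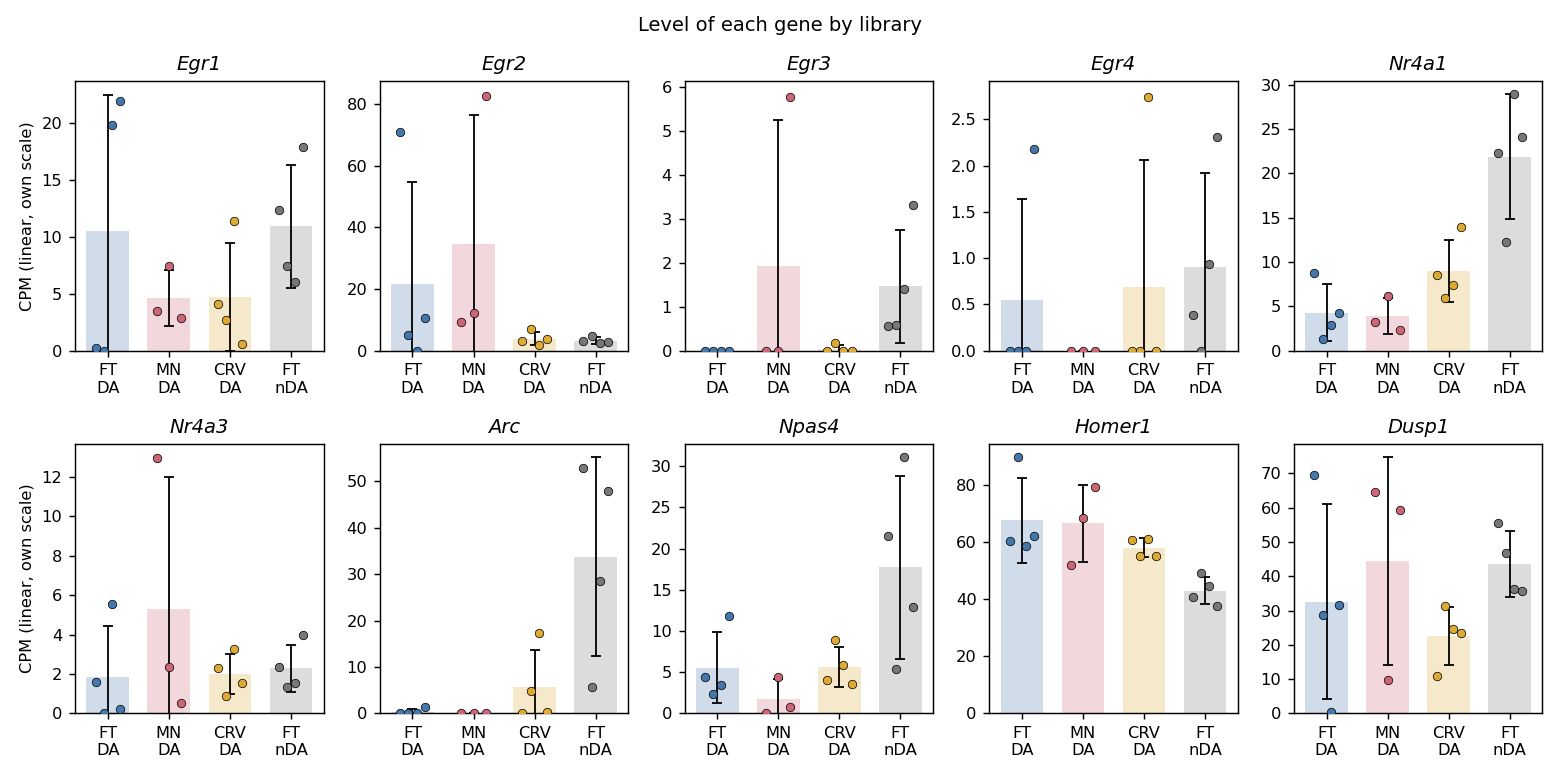
Level of each of the 10 genes in CPM (linear axis, own scale per gene) in the 15 libraries of the 4 groups. Points are libraries, bars are means and whiskers are SD. Arc and Nr4a1 in FT nDA sit above all FT DA points, and Homer1 has the smallest SD relative to its own mean.

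The first comparison asked how dopaminergic and other nuclei of food-trained mice differed in these genes. Arc, Egr3 and Nr4a1 were lower in dopaminergic nuclei (edgeR quasi-likelihood test without a replicate block, Benjamini-Hochberg adjusted p under 0.05), and 0 of the 10 were higher. At an unadjusted p under 0.05, 5 of the 10 differed, with Npas4 (lower) and Homer1 (higher) as the other two, and DESeq2 called 4 of the 10. Of all 19786 genes tested 12.8% passed the edgeR test and 9.17% passed as lower in DA, 24.3% had an unadjusted p under 0.05 and DESeq2 called 19.6%. Groups did not overlap for 4 of the 10 genes (Arc, Egr3, Nr4a1 and Homer1), against 26.1% of all genes. The median log2 fold change was -0.57 over the 10 genes and -0.21 over all genes tested. In sorted bulk nuclei, fewer cells of a type and less RNA per cell cannot be told apart. The sum of 6 astrocyte markers was 391 to 793 CPM in FT DA and 1199 to 2852 CPM in nDA. For 6 microglia markers it was 303 to 518 and 1070 to 1737 CPM. For 5 vascular markers it was 8.59 to 171 and 209 to 422 CPM. For 3 oligodendrocyte precursor markers it was 23.5 to 80.1 and 168 to 231 CPM. These sums were lower in FT DA, but not each marker followed its sum. Mean Gfap was 218 CPM in FT DA and in nDA, mean Aldh1l1 47.1 and 33.1 CPM, and mean Rgs5 31.1 and 30.6 CPM. Markers of GABA neurons (3 genes) summed to 161 to 220 CPM in FT DA and 192 to 262 CPM in nDA. Those of glutamate neurons (3 genes) summed to 167 to 666 and 386 to 650 CPM. Within these lists Slc32a1, Slc17a6 and Slc17a8 had a higher mean in FT DA, and Gad1, Gad2 and Slc17a7 a lower one. In no list was a marker at 0 in all libraries of a group. Their part in these differences was not tested.

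Replicate numbers of FT DA and nDA were taken to pair the samples, though the labels do not state it. Each pair deviated together (correlations 0.12 to 0.26 over 8532 genes), but FT DA and MN replicate 1, not taken as a pair, also correlated by 0.11. Values with the replicate as a block are therefore given where they change a call. With the block 775 genes passed in place of 2534, and 1 of the 10 genes did. In a fit of all 15 libraries Arc (edgeR adjusted p = 0.0634) and Egr3 (0.0783) missed the threshold, and with a term for the 4 low-slope libraries Arc (0.0847), Egr3 (0.110) and Nr4a1 (0.0548) did.

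Arc (chromosome 15, 74669081-74672570) had the widest gap between group means in CPM. It stood at 0.07, 0, 0 and 1.33 CPM in the 4 FT DA libraries and at 52.95, 5.73, 28.47 and 47.91 CPM in the nDA libraries. Each nDA library was above each DA library, and replicate 2, the nDA library with the low GC slope, was the lowest of its group. The means were 0.35 ± 0.66 and 33.8 ± 21.5 CPM (SD, n = 4 each). On the log2 scale the fitted difference, DA minus nDA, was -6.54 ± 1.66 (SE), at an adjusted p of 0.0306 by edgeR. Without FT DA replicate 4, the highest of its group, the difference was -10.03 (adjusted p = 0.00829). The call held with the block (-8.61, adjusted p = 0.0278). It was lost without FT DA replicate 1 (adjusted p = 0.0576) or nDA replicate 1, 3 or 4 (0.0905, 0.0687 and 0.0808), and held without nDA replicate 2.

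Nr4a1 (chromosome 15, 101253902-101274795), also called Nur77, stood at 8.72, 1.37, 2.89 and 4.25 CPM in FT DA and at 22.26, 12.27, 28.98 and 24.14 CPM in nDA. The groups did not overlap, and every library of both had counts. Means were 4.31 ± 3.17 and 21.9 ± 7.02 CPM (SD, n = 4 each), and the fitted log2 difference, DA minus nDA, was -2.34 ± 0.63 (SE), at an adjusted p of 0.0417 by edgeR. With the block the adjusted p was 0.0921. The call was also lost without FT DA replicate 3 (0.0582) or 4 (0.0646) and without nDA replicate 1 (0.118), 3 (0.141) or 4 (0.109), while the log2 fold change stayed between -2.94 and -2.04 in every fit without 1 library.

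Egr3 (chromosome 14, 70077317-70082613) had no count in any of the 4 FT DA libraries. In nDA it had 27, 28, 60 and 152 counts, or 0.55, 0.58, 1.40 and 3.31 CPM. All 4 nDA libraries were thus above the DA libraries, at a low level. Against a floor of 3 counts per library, Egr3 was at least 18.8-fold lower in DA (edgeR adjusted p = 0.0102), and without nDA replicate 4, where the nDA mean was 0.846 CPM, at least 10.9-fold. The adjusted p was 0.0125 to 0.0303 in the 8 fits that left out 1 library and 0.179 with the block.

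Homer1 (chromosome 13, 93303757-93405129) was the one gene of the 4 without overlap that stood higher in DA. Its level was 60.4, 90.1, 58.7 and 62.1 CPM in FT DA and 41.0, 49.1, 44.6 and 37.8 CPM in nDA. The log2 fold change was 0.67 ± 0.21 (SE, 95% interval 0.18 to 1.15), which missed the threshold (edgeR adjusted p = 0.0805). Over the 15 alternatives the adjusted p ranged from 0.0136 (DESeq2) to 0.202, and 2 of them passed, DESeq2 and edgeR without FT DA replicate 3 (0.0491). With the block it was 0.155, and without FT DA replicate 2, the highest library, the log2 fold change was 0.49 (adjusted p = 0.129). Counts per gene do not separate the short activity-induced form, Homer1a, from the constitutive long forms.

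Npas4 (chromosome 19, 4984353-5003439) stood at 4.39, 2.34, 3.51 and 11.87 CPM in FT DA and 21.50, 5.33, 31.13 and 12.86 CPM in nDA. The highest DA library was above the lowest nDA library, which again was replicate 2, and the log2 fold change of -1.67 ± 0.73 (SE) did not pass (edgeR adjusted p = 0.197). Of the 10 genes, 5 were lowest in nDA replicate 2 among the 4 nDA libraries (Egr4, Nr4a1, Nr4a3, Arc and Npas4), and 2 were highest there (Egr2 and Homer1).

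The other 5 genes did not pass, and their intervals were wide. Egr1 (chromosome 18, 34861207-34864956) stood at 0.21, 0, 19.8 and 21.9 CPM in FT DA and at 12.4, 7.42, 6.02 and 17.9 CPM in nDA, so 2 DA libraries were near 0 and 2 were above all nDA libraries. Its log2 fold change was -0.05, with a 95% interval of -3.52 to 3.42. With the block it was -2.82 (edgeR adjusted p = 0.578). Egr2 (chromosome 10, 67534469-67542188) was at 70.95, 4.96, 0 and 10.67 CPM in FT DA and at 3.06, 4.79, 2.36 and 2.74 CPM in nDA, where 3 of 4 DA libraries were above all nDA libraries and 1 had no count. Its log2 fold change of 2.75 ± 1.51 (SE) had an edgeR adjusted p of 0.318. Without FT DA replicate 3, the library with no count, the adjusted p was 0.0388, while without FT DA replicate 1 the log2 fold change was 0.69 (adjusted p = 0.817) and with the block 0.82 (0.825). Dusp1 (chromosome 17, 26505591-26508472) was at 69.6, 28.7, 0.33 and 31.5 CPM in FT DA and 35.7 to 55.7 CPM in nDA. Nr4a3 (chromosome 4, 48045078-48086447) ranged over 0 to 5.57 CPM in FT DA and 1.35 to 3.96 CPM in nDA. Egr4 (chromosome 6, 85511121-85513589) had counts in 1 of 4 FT DA libraries and in 3 of 4 nDA libraries, at most 2.31 CPM. Its log2 fold change was -0.72, and -4.32 with the block (edgeR adjusted p 0.890 and 0.408).

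Divided by the length of the longest transcript, the order of the genes differed in the 2 populations. In FT DA the highest mean levels were those of Dusp1 (14.1 CPM per kb), Homer1 (11.9) and Egr2 (7.30), with Egr1 at 2.34, Nr4a1 at 1.69 and Npas4 at 1.46. Nr4a3 (0.32), Egr4 (0.25), Arc (0.11) and Egr3 (0) followed. In nDA Dusp1 came first (18.9 CPM per kb) and Arc next (11.1), then Nr4a1 (8.58), Homer1 (7.55) and Npas4 (4.67). Dusp1 and Homer1 in FT DA, and Nr4a1 and Homer1 in nDA, differed by less than the SD of Dusp1 or Nr4a1, and Arc and Nr4a1 in nDA by less than the SD of Arc. The place of Egr2 in FT DA rested on replicate 1, without which its mean was 5.21 CPM, or 1.76 CPM per kb, below that of Egr1. Without the same library Dusp1 was at 8.72 CPM per kb, below Homer1 at 12.3. Whether intron reads were counted is not given in the sources used here, so levels per length may be off in nuclear RNA.

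**Figure D2:**
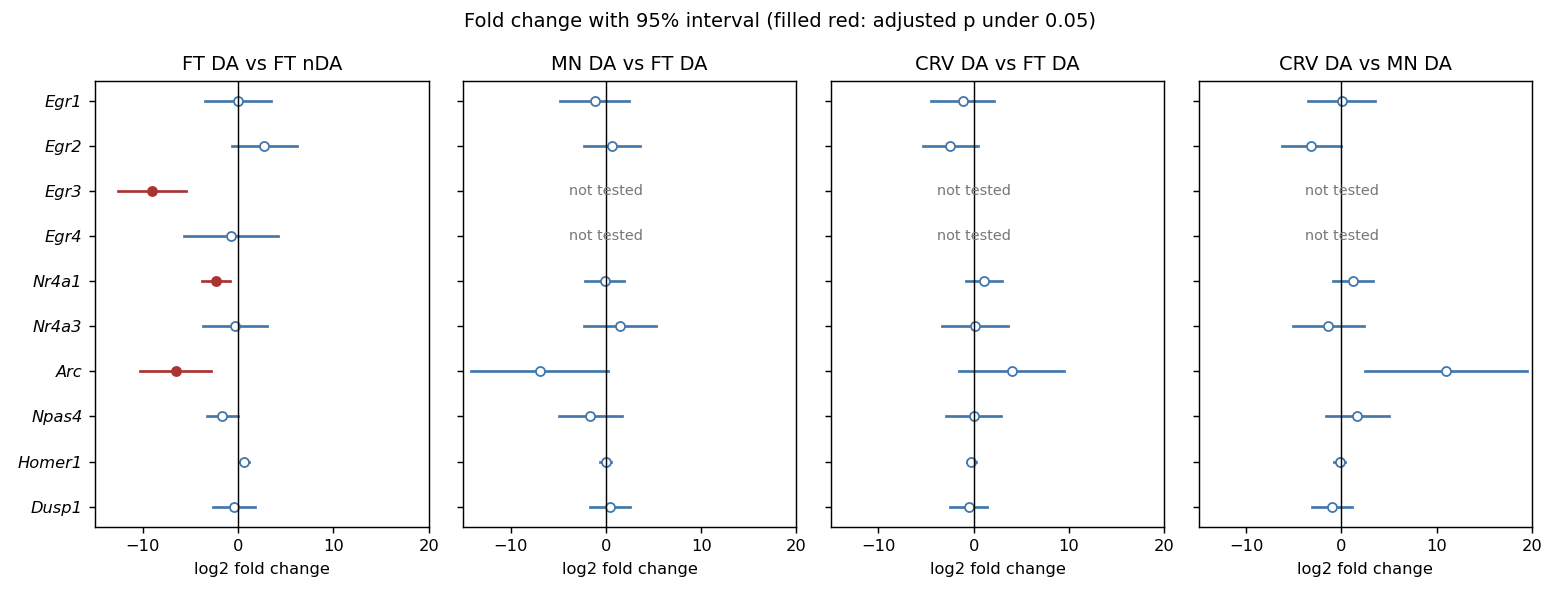
Fitted log2 fold change (x axis) of each gene (y axis) in 4 comparisons, with its 95% interval as a line. Filled red points pass the adjusted threshold in the fit without a replicate block, 3 of them, all in FT DA against FT nDA. Egr3 and Egr4 were too low to be tested between stages.

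The second set of comparisons asked whether the genes differed in dopaminergic nuclei between food training, cocaine maintenance and abstinence. Of the 10 genes 8 passed the filter on low counts (Egr3 and Egr4 did not), and 0 of the 8 passed the edgeR test in any stage comparison. The share of the 19060 genes tested that passed was 0.131% for MN against FT, 0% for CRV against FT, 0.178% for CRV against MN and 0.0839% for any difference among the 3 stages. For CRV against FT, 819 genes (4.3%) had an unadjusted p under 0.05 and DESeq2 called 140 (0.735%). The shares at an unadjusted p under 0.05 were 11.6% for MN against FT, 9.92% for CRV against MN and 7.85% for any difference, and DESeq2 called 5.13%, 4.16% and 1.88%. At an unadjusted p under 0.05 the counts were 0 of 8 for MN against FT and CRV against FT, 2 for CRV against MN (Arc and Egr2) and 1 for any difference (Arc). By DESeq2 1 of the 8, Arc in CRV against MN, passed. CRV and MN were each set against the same FT libraries, and all 3 stages share one estimate of the spread.

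Arc had no count in any of the 3 MN libraries, whose totals were 32032303 to 53019621 counts. After abstinence it stood at 0, 4.77, 17.35 and 0.29 CPM, so 2 of the 4 CRV libraries were above every FT and MN library, 1 had few reads and 1 had none. The CRV mean of 5.60 ± 8.13 CPM (SD, n = 4) was at least 75.1-fold higher than MN, taken at the floor of 3 counts per library. Without CRV replicate 3 the mean was 1.69 CPM, at least 22.6-fold higher. In the edgeR test of CRV against MN, Arc had an unadjusted p of 0.0163 and an adjusted p of 0.424, and the groups overlapped at 0. The adjusted p over the other settings of this comparison ranged from 0.0142 (DESeq2) to 1.00. Arc was also low in nDA replicate 2, the other library with the low GC slope, at 5.73 CPM against 28.5 to 53.0 CPM. In a fit of all 15 libraries with a term for the 4 low-slope libraries, the log2 fold change of Arc in CRV against MN was 8.07, with an edgeR adjusted p of 1.00. Within DA this term is the same as MN, so its size came from nDA replicate 2 alone. This fit therefore cannot tell MN from the low GC slope.

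Egr2 was uneven within stages. It stood at 70.95, 4.96, 0 and 10.67 CPM in FT DA, at 9.25, 12.09 and 82.67 CPM in MN and at 3.24, 6.98, 1.85 and 3.66 CPM in CRV. CRV lay below MN without overlap for Egr2, 1 of the 8 genes tested. The share of all genes without overlap was not computed for this comparison, so the separation was not read as a result. In each of FT and MN, 1 library (replicates 1 and 3) stood far above the rest of its group. The log2 fold change of CRV against MN was -3.15 ± 1.42 (SE), with an edgeR adjusted p of 0.495 (unadjusted 0.0447). That of CRV against FT was -2.47 ± 1.34 (edgeR adjusted p = 1.00), and -0.42 without FT DA replicate 1. Without MN replicate 3 the fold change of CRV against MN was -1.46. MN against FT gave 0.67 ± 1.36, and turned to -1.02 without MN replicate 3.

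Egr1 stood at 3.48, 7.42 and 2.91 CPM in MN and at 4.14, 2.68, 11.45 and 0.60 CPM in CRV, all of them within the FT range of 0 to 21.9 CPM. Its highest DA libraries were FT replicates 4 and 3, which were not those of Egr2 (MN replicate 3 and FT replicate 1). Egr3 had counts in 1 of 3 MN libraries (5.77 CPM in replicate 3, which was also the highest for Egr2) and in 1 of 4 CRV libraries (0.17 CPM). Egr4 had none in MN and was at 2.74 CPM in 1 of 4 CRV libraries. Across the 11 DA libraries Egr3 and Egr4 had no count in 9 each.

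Nr4a1 was at 3.25, 6.22 and 2.30 CPM in MN and at 8.49, 5.999, 7.45 and 13.95 CPM in CRV. The highest DA value was in CRV, and CRV overlapped with FT and MN. The log2 fold changes were -0.13 ± 0.94 (SE) for MN against FT, 1.06 ± 0.88 for CRV against FT and 1.19 ± 0.97 for CRV against MN (edgeR adjusted p 0.997, 1.00 and 0.867). Nr4a3 had its highest level in MN replicate 1 (12.96 CPM), with 2.35 and 0.51 CPM in the other two and 0.91 to 3.25 CPM in CRV. Npas4 was at 0, 4.46 and 0.78 CPM in MN and 3.59 to 8.90 CPM in CRV, and its interval for CRV against MN ran from -1.64 to 4.95 on the log2 scale.

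Homer1 was the steadiest of the 10 genes. It stood at 52.2, 68.5 and 79.3 CPM in MN and at 61.0, 55.2, 61.1 and 55.3 CPM in CRV. The 95% interval of its log2 fold change was -0.59 to 0.53 for MN against FT, -0.75 to 0.29 for CRV against FT and -0.76 to 0.35 for CRV against MN. A rise or a fall by 1 on the log2 scale lay outside each of them. For the other 7 genes tested, the interval reached past 1 in at least 1 direction in each stage comparison. Dusp1 was at 64.6, 9.62 and 59.4 CPM in MN and 10.9 to 31.3 CPM in CRV, with an interval of -1.66 to 2.55 for MN against FT.

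**Figure D3:**
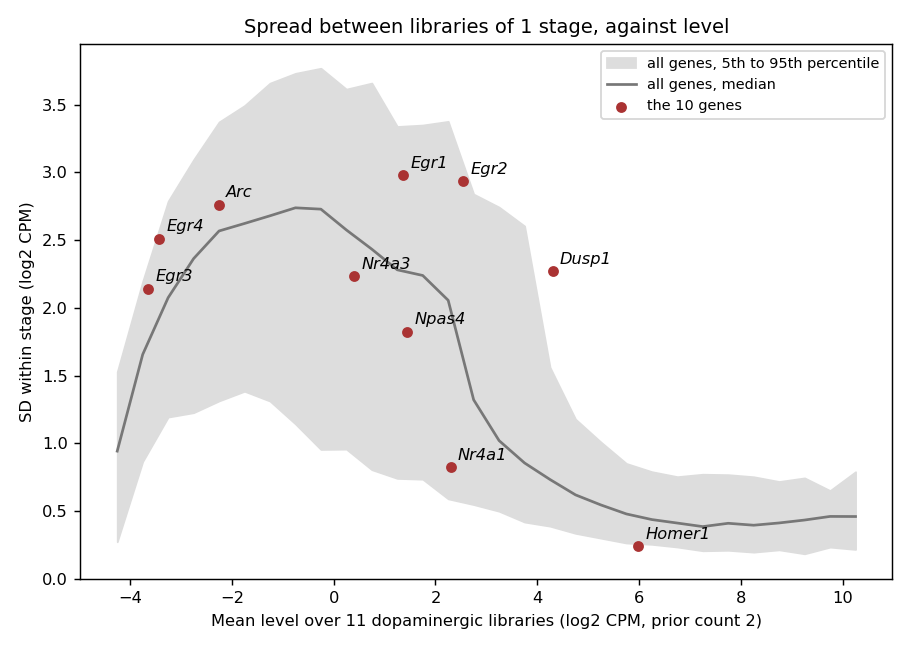
SD of log2 CPM between libraries of the same stage (y axis) against the mean level over the 11 DA libraries (x axis, log2 CPM with a prior count of 2). The line and band are the median and the 5th to 95th percentiles of all genes, and red points are the 10 genes. Dusp1 lies above the band and Homer1 at its lower edge.

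How far the genes varied between libraries of a stage was not the same. The SD of log2 CPM within stage was 0.24 for Homer1, against a median of 0.46 over 2294 genes within 0.5 log2 of its level. Dusp1 had 2.27, where 2473 genes of like level had a median of 0.72, and FT replicate 3 (9 counts) was the low library. Egr2 had 2.94 against 1.47 and Egr1 2.98 against 2.27. Nr4a1, at 0.83 against 1.84, varied less than the median gene of like level. In the nDA libraries the SD of Dusp1 was 0.31 and that of Egr2 0.43, against medians of 0.28 and 0.46, and Homer1 had 0.16 against 0.28. The other 7 genes were above the median gene of like level there. Arc had an SD of 1.48 against a median of 0.29, Npas4 1.10 against 0.33, Egr4 2.45 against 0.76 and Egr3 1.17 against 0.62. Egr1 had 0.71 against 0.36, Nr4a1 0.54 against 0.31 and Nr4a3 0.68 against 0.52. Counts of these amplified libraries carry no molecular identifiers, and the part of amplification in this spread was not tested.

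**Figure D4:**
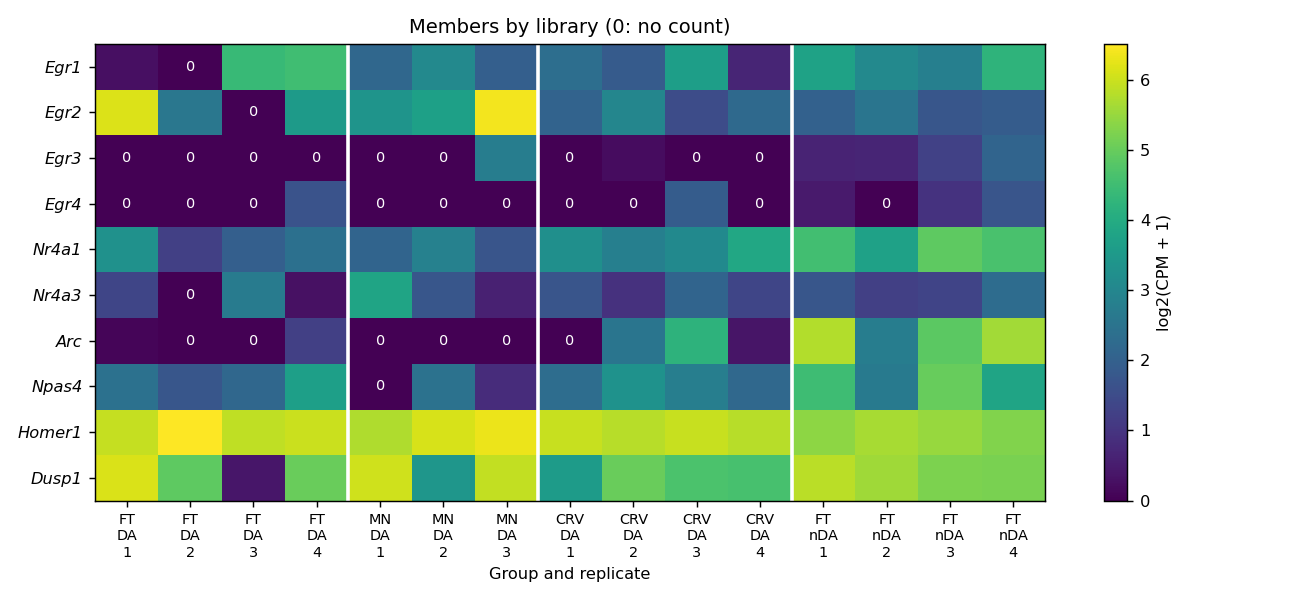
The 10 genes (y axis) in each of the 15 libraries (x axis, group and replicate), coloured by log2(CPM + 1), with 0 written where a library had no count. Zeros are 28 of the 110 DA values and 1 of 40 nDA values (36.6% and 14.7% over all genes with a count in any library). Among the DA libraries, the brightest cells of Egr2, Egr1 and Arc lie in MN replicate 3, FT replicate 4 and CRV replicate 3.

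No single library was high for the whole group of genes. Among the 11 DA libraries, the highest values of the 10 genes fell in 7 different libraries, with at most 2 genes in any of them (FT replicate 4, MN replicate 3 and CRV replicate 3). Values of 0 made up 12 of 40 in FT DA, 9 of 30 in MN, 7 of 40 in CRV and 1 of 40 in nDA, or 25.5% over all DA values and 2.5% in nDA. Over the 27356 genes with a count in any library, zeros made up 36.6% of DA values and 14.7% of nDA values. By stage these shares were 39.8% in FT DA, 39.5% in MN and 31.3% in CRV, beside 30%, 30% and 17.5% for the 10 genes. The DA libraries had counts of 14841 to 19750 genes against 22733 to 23886 in nDA. FT replicate 2 had no count of 5 of the 10 genes while it had the highest level of Homer1.

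The genes whose pattern over the 11 DA libraries was closest to a member's, by the root mean square (RMS) difference of centred log2 CPM, were named for 4 members, among 7727 genes with a mean of at least 4 log2 CPM (7726 for Homer1). For Homer1 they were Klhl1 (0.13), Eid1 (0.16) and Actb (0.17), beside an RMS of 0.22 for Homer1 itself. For Nr4a1 they were Zfp275 (0.40), Mars (0.45) and Sgsm3 (0.46), beside 0.93. For Egr1 they were Tbc1d20 (1.71), Ogfod3 (1.82) and Dgkg (1.82), beside 2.62, and for Arc Pigo (2.15), Abcb9 (2.25) and Tmem200c (2.27), beside 3.01.

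Other genes of the pathway were taken from lists, and 0 genes of the 5 lists passed the edgeR test for MN against FT, CRV against FT or CRV against MN. At an unadjusted p under 0.05 there were 14, 2 and 14 of 107 (11.6%, 4.3% and 9.92% of all genes), and DESeq2 called 6, 1 and 10 (5.13%, 0.735% and 4.16% of all genes). Between the populations 9 of 107 passed by edgeR and 15 by DESeq2, beside 12.8% and 19.6% of all genes. Of 7 AP-1 genes, whose Fos and Jun proteins pair to bind DNA, 6 were tested and 0 passed between the populations. In MN against FT all 6 tested had a log2 fold change below 0, with Jun at -1.70 ± 0.35 and Junb at -2.16 ± 0.45 (SE, edgeR adjusted p = 0.0900 each). DESeq2 called Jun and Junb in this comparison, in CRV against MN and for any difference among the stages. The 6 oligodendrocyte markers summed to 1636 to 2576 CPM in FT DA and to 987 to 1620 CPM in MN, without overlap. Their part in the AP-1 values of MN against FT was not tested. Jun was at 14.0 ± 2.96 CPM in MN and 45.4 ± 9.96 CPM in FT DA (SD, n = 3 and 4). Its lowest nDA library, 19.95 CPM, was the one with the low GC slope, and the part of this slope was not tested.

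Of 35 other rapid activity-induced genes, 33 were tested and 1 was higher in DA than in nDA: Btg2, an antiproliferative gene, was at 123 ± 39.4 against 47.1 ± 3.02 CPM (SD, n = 4 each, log2 fold change 1.39, edgeR adjusted p = 0.0067). Of 20 late activity-induced genes, 19 were tested and 2 were higher in DA. These were Scg2, the granule protein secretogranin II (log2 fold change 1.495), and Pcsk1, a prohormone convertase (1.89), each with an edgeR adjusted p of 0.0067. Both belong to secretory granules of neuroendocrine cells. The calls of Btg2, Scg2 and Pcsk1 held with the block.

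Of 29 upstream factors, 27 were tested and 3 were lower in DA. The CREB coactivator Crtc1 had a log2 fold change of -1.95, the factor Mef2c of -1.52 and the kinase Camkk2 of -1.11 (edgeR adjusted p 0.0450, 0.0140 and 0.0280). With the block none of the 3 passed (adjusted p 0.0987, 0.0820 and 0.0569). The others tested did not pass, and the list's median log2 fold change was -0.66 against -0.21 over all genes.

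Of 22 partners of the members' proteins, all 22 were tested, 2 were higher and 1 was lower in DA. Nr4a2, the third Nr4a receptor and a factor of dopamine neuron identity, was at 109 ± 52.8 CPM in FT DA and 17.9 ± 1.78 CPM in nDA (SD, n = 4 each, log2 fold change 2.61, edgeR adjusted p = 0.0063), opposite in sign to Nr4a1. Mapk8, the kinase JNK1, a substrate of Dusp1, had 0.77 (adjusted p = 0.0255, and 0.0622 with the block). Nab2, a corepressor that binds Egr proteins, had no count in any FT DA library and stood at 8.34, 1.21, 7.56 and 10.58 CPM in nDA (edgeR adjusted p = 0.0068, and 0.106 with the block). Nab2 also had none in the 3 MN libraries and was at 7.68, 0, 8.41 and 1.34 CPM in CRV. Its lowest nDA library was replicate 2, and the part of the GC slope was not tested.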

How the data were processed

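RNA of sorted nuclei was sequenced in 15 libraries, made with a low-input cDNA kit without molecular identifiers, per the labels' protocols. The authors deposited a table of raw whole-number counts per gene for 35976 genes. The submitters' processing notes name mm10 and GRCm38, Trim Galore 0.6.7, cutadapt 1.18, STAR 2.7.10a, StringTie 2.1.5 and DESeq2 1.38.3. Their settings, the annotation and the use of strand are not given in the sources used here, so overlapping genes could share reads. A second deposited table, named as normalized, held the same counts for 10 columns (0 cells differed) and was not used.

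Samples were grouped by their titles. Counts were tested with edgeR 4.0.16 in R 4.3.3 (filterByExpr, TMM, quasi-likelihood F-test, two-sided, adjusted p under 0.05 over all genes tested), with 8 FT libraries for the populations and 11 DA libraries for the stages. DESeq2 1.42.0 was an alternative, beside its size factors, no filter, a replicate block, a GC offset, a fit of all 15 libraries with and without a term for the 4 low-slope libraries, and leaving out each library. The low-slope term marked the 3 MN libraries and nDA replicate 2, so it was estimated from nDA replicate 2 alone. CPM used TMM factors of all 15 libraries, and log2 CPM a prior count of 2. A group was taken as at the floor at 3 counts or fewer in each library. The slope on GC used the longest GENCODE M21 transcript per symbol (26763 symbols matched directly, 18 by an older symbol, 9195 not) over 8173 genes. Scripts were tested on simulated data.

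All 10 genes are named, with genes of 5 lists that passed the test (at most 4 a comparison, lowest p first, read as 4 of each list) and, for 4 members, the 3 closest genes. Jun and Junb were named after their values were seen. The members and lists were chosen with earlier results of these data known. Replicate numbers were taken to pair FT DA with FT nDA, though the labels do not state it. Their deviations correlated by 0.116, 0.127, 0.262 and 0.243, each highest for its own number, and the titles share those numbers. The numbers of the 3 stages were not taken to pair. FT DA and MN correlated by 0.110 for replicate 1, highest for its own number, and by -0.0845 and -0.0617 for replicates 2 and 3. Depth was 25813697 to 59046618 counts a library, and intervals from counts alone would cover counting error only.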

Additional observations from a re-analysis of the deposited data

Results flagged for a closer look

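In 6 of the 29 sets of 4 libraries tested, 1 library stood far from the other 3. Chance gives about 1 in 20 for normally distributed values, which these are not, so the number of such sets was not read against chance. In 3 of the 6 (Egr4 in FT DA and in CRV, Egr3 in CRV) the other 3 libraries had no count, where any count stands apart. Egr2 was at 70.95 CPM in FT DA replicate 1. Homer1 was at 90.12 CPM in FT DA replicate 2, the library without counts of 5 of the 10 genes. Arc was at 1.331 CPM in FT DA replicate 4 and Egr4 at 2.182 CPM in the same library. Egr4 was at 2.744 CPM in CRV replicate 3, which was also the highest DA library for Arc. Egr3 was at 0.1698 CPM in CRV replicate 2, where the other 3 libraries had no count, and its 9 counts set it apart.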

How the results depend on the processing

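Of 10 genes between the populations, 3 passed, against 1 with the replicate block, 1 in a fit of 15 libraries, 0 with the low-slope term added and 1 to 4 in fits without 1 library (1 without nDA replicate 1, 3 or 4). The stage comparisons had 0 throughout except for 1 by DESeq2 (CRV against MN). Genes passing between the populations numbered 2534, against 3883 by DESeq2, 775 with the block, 1968 in a fit of 15 libraries and 965 with the low-slope term added to that fit. For MN against FT they numbered 25, against 977 by DESeq2, 0 with the block, 18 in a fit of 15 libraries, 0 with the low-slope term added and 5 to 78 without 1 library. For CRV against FT the 0 became 140 by DESeq2. For CRV against MN the 34 became 793 by DESeq2, 2 with the block, 15 in a fit of 15 libraries, 1 with the low-slope term added and 6 to 73 without 1 library. For any stage the 16 became 358 by DESeq2, 0 with the block, 9 with the GC offset, 9 in a fit of 15 libraries, 0 with the low-slope term added and 1 to 23 without 1 library. The low-slope term rests on nDA replicate 2 alone, so calls of MN lost with it cannot tell MN from the low GC slope.

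In 45 of 582 alternative values of a log2 fold change of the 10 genes the sign turned, and none of these passed the test. With the block these were Egr1 (MN against FT 0.95, CRV against FT 0.22, CRV against MN -0.73), Nr4a1 (MN against FT 0.20) and Npas4 (CRV against FT -0.0479). The GC offset turned Egr1 (populations 0.0197, CRV against MN -0.33), Nr4a1 (MN against FT 0.19) and Homer1 (CRV against MN 0.27). The low-slope term turned Egr2 (MN against FT -0.17), Nr4a1 (0.88) and Npas4 (0.38) for MN against FT, and Egr1 (-0.67), Npas4 (-0.36) and Homer1 (0.0739) for CRV against MN. Npas4 in CRV against FT was -0.0153 with DESeq2 size factors and -0.0154 by DESeq2. Without 1 library, between the populations Egr1 ranged from -0.70 to 0.36, Egr4 from -8.31 to 0.31, Nr4a3 from -1.90 to 0.10 and Dusp1 from -1.10 to 0.0247. For MN against FT, Egr2 ranged from -1.02 to 2.73, Nr4a1 from -0.68 to 0.47, Nr4a3 from -0.35 to 3.12 and Homer1 from -0.16 to 0.12. For CRV against FT, Nr4a3 ranged from -0.30 to 1.74, Npas4 from -0.29 to 0.69 and Dusp1 from -0.95 to 0.15. For CRV against MN, Egr1 ranged from -0.91 to 0.59 and Nr4a3 from -1.92 to 0.46. The causes were not tested. Arc, Egr3 and Nr4a1 kept their sign between the populations in all 15 alternatives each, as did Homer1. The 40 mean CPM values moved by less than 1 SD with DESeq2 size factors. Of the listed genes, Btg2, Scg2, Pcsk1 and Nr4a2 passed in all 15 alternatives, Nab2 in 14, Mef2c in 13, Mapk8 in 9, and Crtc1 and Camkk2 in 8 each. The replicate numbers were not taken to pair the stages.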
